A study of Mus musculus with 18 samples.

Results

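The genes described here are 10 mouse genes of bile acid synthesis and transport: Cyp7a1, Cyp8b1, Cyp27a1, Cyp7b1, Cyp39a1, Abcb11, Slc10a1, Slco1a1, Slco1a4 and Slco1b2. They were chosen by name, and all 10 were found among the 21899 genes of the expression table. RNA of liver, epididymal white adipose tissue (eWAT) and quadriceps muscle was sequenced in 18 libraries, with 3 libraries of each diet in each of the 3 tissues. All mice were male C57BL/6 of wild-type genotype, 18 weeks old. The CON group received the control diet, and the HSD group had been fed a high-salt diet, with saline to drink, for 12 weeks. The library names carry mouse numbers, some of which recur between tissues. The study's own table of libraries lists 15 of the 18, leaving out CON16L and HS5L of liver and HS5W of eWAT, so values are given over all libraries and, where this matters, over the study's libraries.

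Bile acids are made from cholesterol in hepatocytes. In the classic pathway Cyp7a1 adds the first hydroxyl group and sets the rate, and Cyp8b1 adds the hydroxyl group that makes cholic acid. In the alternative pathway Cyp27a1, a mitochondrial enzyme that is also found outside the liver, oxidises the side chain of cholesterol, and Cyp7b1 and Cyp39a1 hydroxylate the oxysterols that arise from it or from other reactions. Hepatocytes take bile acids up from portal blood through Slc10a1 (NTCP), which works with sodium, and through the organic anion carriers Slco1a1, Slco1a4 and Slco1b2, and they secrete them into bile through Abcb11 (BSEP). The bile acid receptor FXR is known to induce Abcb11 and to lower Cyp7a1, through SHP in liver and FGF15 from the gut.

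The genes lie on 8 chromosomes of mm10. Slco1b2 (chr6:141629518-141686646, plus strand), Slco1a4 (chr6:141805440-141856199, minus strand) and Slco1a1 (chr6:141907282-141946962, minus strand) are neighbours in the Slco gene cluster. Of the windows of 75 bases in their annotated transcripts, 1.08% of those of Slco1a1 and 1.03% of those of Slco1a4 were also found in transcripts of other Slco1a genes and none of those of the other 8 genes was found in another gene, so few reads could be split between relatives. RefSeq promoter sequences (GRCm38.p6) were at hand for 7 of the 10 genes, in 8 windows, and not for Cyp7a1, Cyp7b1 and Cyp39a1. The 120 bases before the start site are printed for 3 genes, 1 each of secretion, synthesis and uptake, because they hold the known regulatory elements that were searched for. Capitals mark an inverted repeat of the kind bound by FXR (AGGNCA, then any base, then TGNCCT) and an element of the kind bound by HNF4A (CAAAGTCCA). Both motifs were chosen with these sequences in view.

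Abcb11: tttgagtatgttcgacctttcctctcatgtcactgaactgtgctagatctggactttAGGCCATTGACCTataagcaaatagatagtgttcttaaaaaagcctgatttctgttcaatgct

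Cyp8b1: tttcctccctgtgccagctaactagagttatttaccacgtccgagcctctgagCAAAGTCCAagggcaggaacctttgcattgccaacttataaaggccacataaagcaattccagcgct

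Slco1b2: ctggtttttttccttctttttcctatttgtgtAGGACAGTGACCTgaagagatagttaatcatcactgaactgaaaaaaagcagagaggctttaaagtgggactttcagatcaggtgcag

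These stretches lie at chr2:69342617-69342736 (minus strand), chr9:121916306-121916425 (minus strand) and chr6:141629398-141629517 (plus strand). With both strands searched over the 250 bases before the start in 32851 promoters, the FXR repeat was found in 28 (0.0852%) and the HNF4A element in 126 (0.384%). Among the 8 windows of these genes, the FXR repeat was in those of Abcb11 and Slco1b2 and the HNF4A element in that of Cyp8b1. The motifs did not overlap in the printed stretches. A match describes the letters in a window and is not evidence of binding.

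Values are FPKM, which are fragments per kilobase of exon scaled to the library size, and between 7.63e+06 and 1.66e+07 fragments per library lay behind them. In liver, the share of fragments on mitochondrially encoded genes was 60.9% in CON14L, 37.9% in CON72L and 25.7% in CON16L, against 16.3% in HS2L, 15.4% in HS4L and 44.4% in HS5L. The summed FPKM of 24 hepatocyte markers was 22087 in CON14L, 80605 in CON72L and 99072 in CON16L, and 109288 in HS2L, 112422 in HS4L and 50760 in HS5L. Liver library CON16L also held skeletal muscle transcripts, with 4007 FPKM over 8 markers against at most 5.04 in the other liver libraries. In eWAT, HS3W held 19870 FPKM of 12 epididymal epithelium markers against at most 13.6 in the other eWAT libraries, and its adipocyte markers summed to 7194 FPKM against 16945 or more. Alb in liver, Adipoq in eWAT and Acta1 in muscle were each far higher in their own tissue than in the other two.

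In CON liver, the level per exon length was highest for Cyp27a1 at 186.2 ± 32.1 FPKM (SD, n = 3). Abcb11 followed at 129.3 ± 46.1, Slco1b2 at 86.6 ± 7.46, Cyp8b1 at 58.3 ± 20.2, Slc10a1 at 56.0 ± 20.8, Cyp7b1 at 44.0 ± 21.1 and Slco1a1 at 36.8 ± 7.77. Cyp7a1 was lower, at 8.73 ± 5.40 FPKM, as were Slco1a4 at 4.28 ± 0.273 and Cyp39a1 at 0.628 ± 0.579. Neighbours in this order had overlapping libraries, except that every library of Slco1b2 lay above every one of Cyp8b1, every one of Slco1a1 above every one of Cyp7a1, and every one of Slco1a4 above every one of Cyp39a1. In HSD liver, the highest mean was that of Slco1b2 at 187.2 ± 48.8 FPKM, followed by Cyp27a1 at 153.4 ± 59.6 and Cyp7b1 at 109.8 ± 71.8, and Slco1a4, at 14.6 ± 3.54, stood above Cyp7a1, at 4.67 ± 2.77, with no overlap.

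**Figure D1:**
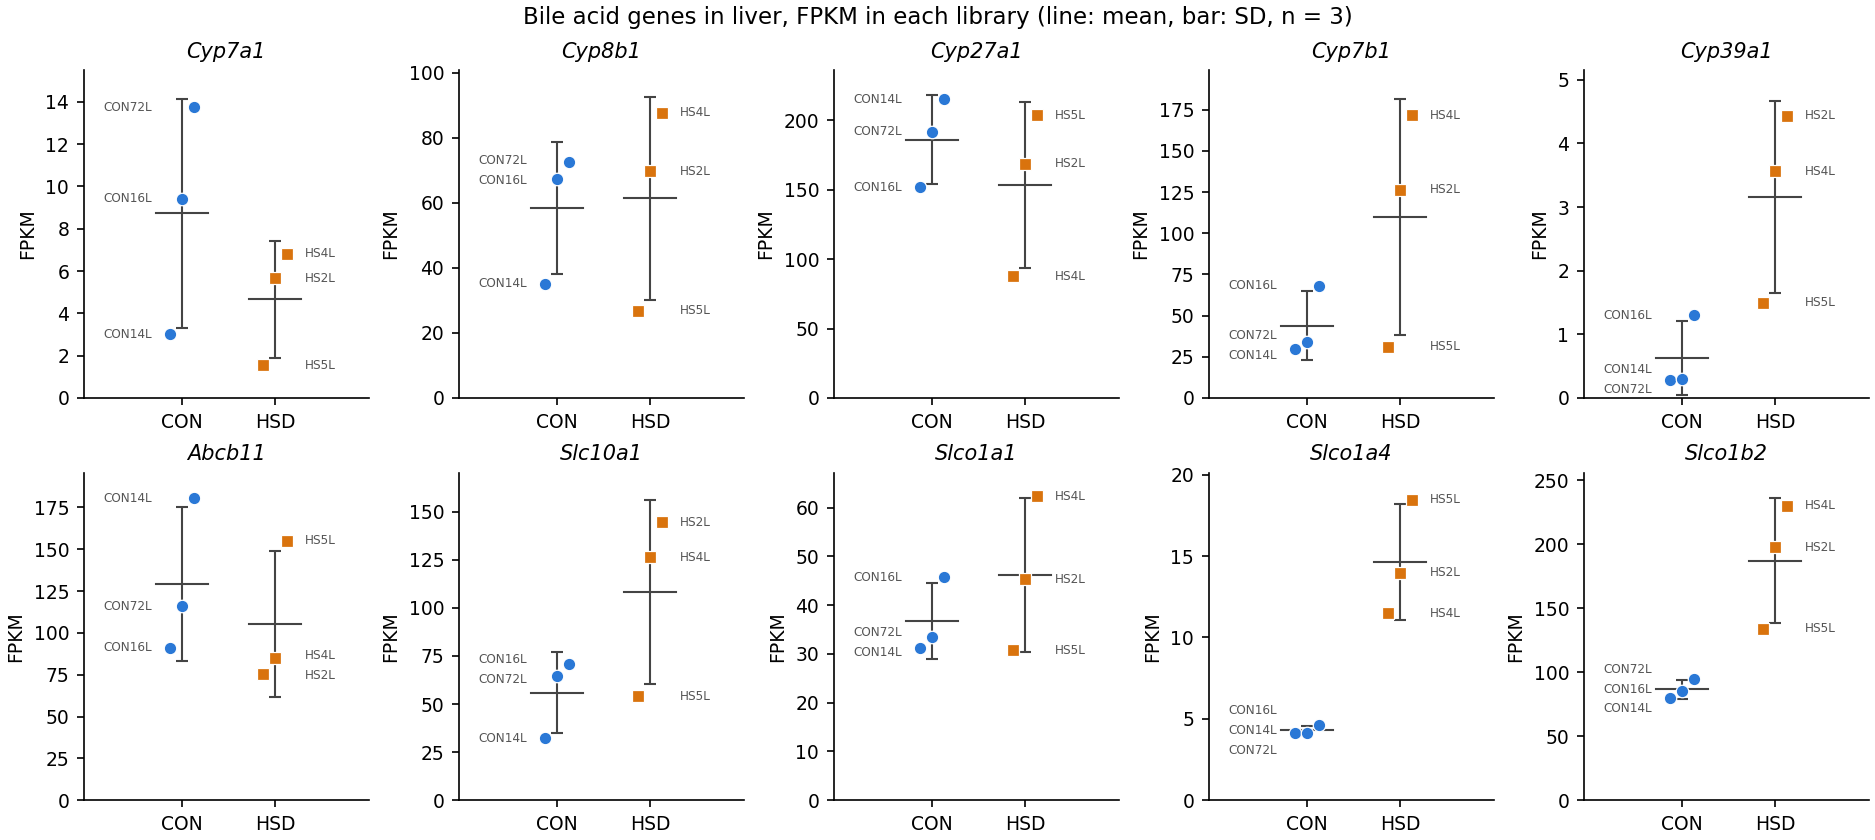
FPKM of each of the 10 genes in the 6 liver libraries, with CON as circles and HSD as squares, each point named by its library, the line at the group mean and the bar as the SD (n = 3). The squares lie above all circles for Cyp39a1, Slco1a4 and Slco1b2, while HS5L lies among or below the CON libraries for Cyp7a1, Cyp8b1, Cyp7b1, Slc10a1 and Slco1a1.

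The first question is how the 12-week diet bore on bile acid synthesis in liver. Cyp7a1, the rate-setting enzyme, was at 3.02 FPKM in CON14L, 13.7 in CON72L and 9.42 in CON16L, and at 5.66 in HS2L, 6.81 in HS4L and 1.54 in HS5L. The lowest of the 6 was an HSD library and the 2 highest were CON libraries, but the groups overlapped, since CON14L lay below HS2L and HS4L. On the log2(FPKM + 0.5) scale used for all fold changes, HSD stood at −0.81 against CON (SE 0.65, limma adjusted p = 0.764). Cyp8b1, which makes cholic acid, was at 35.2 FPKM in CON14L, 72.6 in CON72L and 67.2 in CON16L, and at 69.7 in HS2L, 87.6 in HS4L and 26.8 in HS5L. The lowest value of each diet was that of the library with the most mitochondrial fragments of its group, and the difference between the diets was −0.02 (SE 0.54, limma adjusted p = 0.992).

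In the alternative pathway, Cyp27a1 was the highest of all enzymes and was at 215.2 FPKM in CON14L, 191.8 in CON72L and 151.7 in CON16L, and at 168.8 in HS2L, 87.6 in HS4L and 203.8 in HS5L. Only HS4L lay below the CON range, and the difference was −0.35 (SE 0.45, limma adjusted p = 0.819). Cyp7b1, the oxysterol 7-hydroxylase, whose expression in mouse liver is higher in males, was at 29.7 FPKM in CON14L, 34.0 in CON72L and 68.2 in CON16L, and at 126.4 in HS2L, 171.8 in HS4L and 31.1 in HS5L. HS2L and HS4L lay above all CON libraries and HS5L among them, with a difference of 1.09 (SE 0.69, limma adjusted p = 0.764). Cyp39a1, which prefers 24-hydroxycholesterol, was at 0.301 FPKM in CON14L, 0.286 in CON72L and 1.30 in CON16L, and at 4.43 in HS2L, 3.57 in HS4L and 1.49 in HS5L. All 3 HSD values lay above all CON values, with 7, 8 and 46 fragments in the CON libraries and 141, 113 and 39 in the HSD libraries. The difference was 1.71 (SE 0.45, unadjusted p = 0.00595, limma adjusted p = 0.764), and the log2 scale with its pseudocount understates a change at such low levels. In CON16L, the CON library nearest to the HSD values, the muscle transcripts described above were present, and Cyp39a1 in muscle of CON mice was at 2.58 ± 0.384 FPKM (SD, n = 3), so the part of muscle RNA in that value was not tested.

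Of the carriers, the canalicular pump Abcb11 was at 180.6 FPKM in CON14L, 115.9 in CON72L and 91.2 in CON16L, and at 75.6 in HS2L, 85.1 in HS4L and 155.2 in HS5L. HS2L and HS4L were below every CON library and HS5L was not, and the difference was −0.31 (SE 0.46, limma adjusted p = 0.845). The order of these libraries was the reverse of that for Slc10a1, the sodium-dependent uptake carrier, which was at 32.2 FPKM in CON14L, 64.8 in CON72L and 71.0 in CON16L, and at 144.5 in HS2L, 126.3 in HS4L and 54.1 in HS5L. For Slc10a1 the difference was 0.91 (SE 0.52, limma adjusted p = 0.764), with HS5L within the CON range. Slco1a1, an organic anion carrier of male liver, was at 31.2 FPKM in CON14L, 33.4 in CON72L and 45.7 in CON16L, and at 45.3 in HS2L, 62.3 in HS4L and 30.7 in HS5L, with overlap of the groups. The difference was 0.28 (SE 0.38, limma adjusted p = 0.827), and it turned to −0.27 with mitochondrially encoded genes left out and to −0.12 with quantile normalization. Against the median of all genes it stood at 0.16 as deposited and at 0.11 and −0.16 in these settings.

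The other organic anion carriers separated the diets in all 6 libraries. Slco1a4 was at 4.13 FPKM in CON14L, 4.12 in CON72L and 4.60 in CON16L, and at 14.0 in HS2L, 11.5 in HS4L and 18.5 in HS5L. Every HSD library lay above every CON library, and HS5L, which lay within or below the CON range for 7 of the other genes, was the highest of the 6. The difference of 1.64 (SE 0.26, 3.11-fold) had an unadjusted p of 0.000344, and the limma adjusted p over all genes was 0.55. Slco1b2, the main carrier of unconjugated bile acids, was at 79.9 FPKM in CON14L, 94.6 in CON72L and 85.4 in CON16L, and at 197.5 in HS2L, 230.1 in HS4L and 134.1 in HS5L. The CON libraries lay close together and below all HSD libraries, with a difference of 1.08 (SE 0.38, 2.11-fold, unadjusted p = 0.0238, limma adjusted p = 0.764).

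Over all 6 liver libraries, none of the 10 genes was called at a limma adjusted p under 0.05 and a log2 fold change of 1 or more in either direction. None of the 10317 genes tested was called (0%), with 592 genes at an unadjusted p under 0.05, of which 3 were Cyp39a1, Slco1a4 and Slco1b2. These 3 of the 10 genes had all HSD libraries above all CON libraries, as did 8.62% of all genes, and none had all HSD libraries below, as did 3.47% of all genes. The median log2 fold change of the 10 genes was 0.60 and that of all genes 0.13. Relative to the median of all genes, Cyp39a1 stood at 1.59, Slco1a4 at 1.51, Cyp7b1 at 0.96, Slco1b2 at 0.95 and Slc10a1 at 0.78, and Cyp7a1 at −0.94. When FPKM were rescaled without the mitochondrially encoded genes, the median of all genes moved to −0.37, and against it Slco1a4 stood at 1.53, Cyp39a1 at 1.98, Slco1b2 at 0.90 and Cyp7a1 at −1.01. In a liver library low in hepatocyte markers, such as CON14L, fewer hepatocytes and less RNA per hepatocyte cannot be told apart. Of the 24 hepatocyte markers, 23 had a higher mean in HSD, with a median difference of 0.91, and their part in the values of the 10 genes was not tested.

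Over the study's 4 liver libraries (CON14L and CON72L against HS2L and HS4L), Cyp39a1 was called as higher in HSD, with a log2 fold change of 2.50 (SE 0.26, limma adjusted p = 0.0131), where 0.351% of the 9970 genes tested were called. Cyp39a1 was at 0.301 and 0.286 FPKM in CON14L and CON72L, below the level for testing of 0.5 FPKM. The gene reached that level only through HSD, so its call is not read further. Cyp7b1 at 2.20 (SE 0.46), Slco1a4 at 1.51 (SE 0.31), Slc10a1 at 1.55 (SE 0.52) and Slco1b2 at 1.29 (SE 0.51) did not pass, with limma adjusted p of 0.0574, 0.0574, 0.098 and 0.13. Abcb11 stood at −0.85 (SE 0.51) and Cyp27a1 at −0.74 (SE 0.57). With 2 libraries a diet, 6 of the 10 genes had both HSD libraries above both CON libraries, against 45.3% of all genes, and 2 had both below, against 19.3% of all genes. All 24 hepatocyte markers were higher in HSD in this set, with a median of 1.65, and the median of all genes was 0.24. When these libraries were scaled by the geometric mean of the hepatocyte markers, Abcb11 was called as lower (−2.37, limma adjusted p = 0.000314), as was Cyp27a1 (−2.27, limma adjusted p = 0.000297). With this scaling the median of all genes was −1.02, and all but 4 of the genes called were lower. Against that median Abcb11 stood at −1.35 and Cyp27a1 at −1.24. Slc10a1 came to 0.03, Slco1a4 to 0.07 and Slco1b2 to −0.24, and Cyp39a1 was no longer called (1.45, limma adjusted p = 0.36). The call of Cyp39a1 was also lost with all genes tested (limma adjusted p = 0.192) and with mitochondrially encoded genes left out (limma adjusted p = 0.0997). In the latter setting Abcb11 (−2.02) and Cyp27a1 (−1.91) were called as lower, where the median of all genes was −0.80 and 28 of the 533 genes called were higher. Over all 6 libraries the same scaling by hepatocyte markers gave 0.86 for Slco1a4, 1.16 for Cyp39a1 and −1.13 for Abcb11, with a limma adjusted p of 0.696 for each. It gave 0.25 for Slco1b2, 0.27 for Cyp7b1 and 0.08 for Slc10a1, with limma adjusted p of 0.749, 0.747 and 0.877, where the median of all genes was −0.56.

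**Figure D2:**
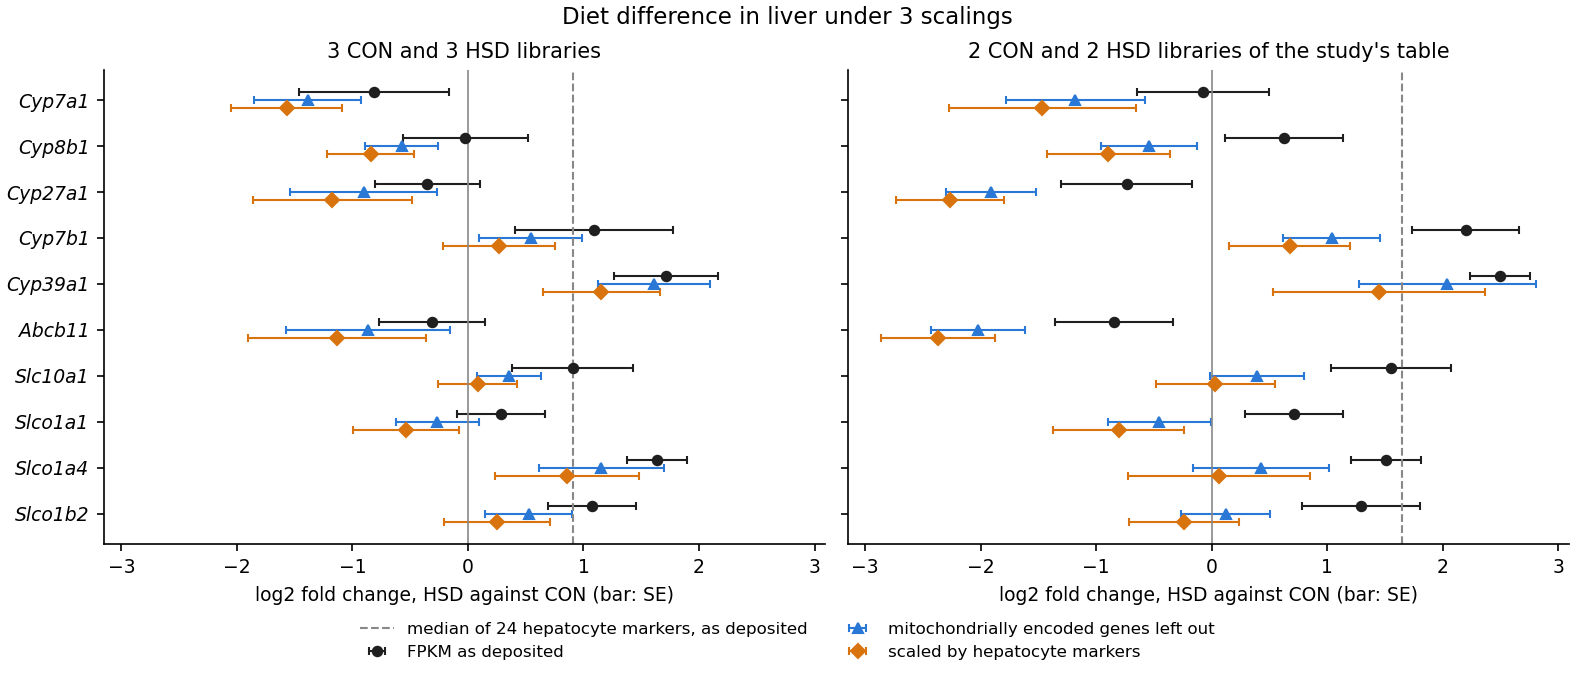
Log2 fold change of HSD against CON liver on the log2(FPKM + 0.5) scale (x axis, bar: SE) for the 10 genes under 3 scalings, over 6 libraries (left) and over the study's 4 libraries (right), with the dashed line at the median of the 24 hepatocyte markers as deposited. The triangles and diamonds lie to the left of the circles for every gene. With hepatocyte marker scaling Abcb11 and Cyp27a1 reach −2.37 and −2.27 in the right panel, where the median of all genes is −1.02.

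Pairs of genes were compared within each library, a step added after the values above were seen. FPKM ratios of 2 genes do not depend on how libraries are scaled, whereas differences of log2(FPKM + 0.5) do so for genes at low levels. Of the 45 pairs among the 10 genes, 18 had log2(FPKM + 0.5) differences that did not overlap between the diets over the 6 liver libraries, where this held for 12.2% of the 53215086 pairs of all tested genes. Cyp7a1 was the partner that was lower in HSD in 6 of these pairs, Cyp8b1 in 5 and Slco1a1 in 3. Slco1a4 was the partner that was higher in HSD in 5 pairs, and Cyp39a1 and Slco1b2 in 4 each. On the FPKM ratios themselves 19 pairs did not overlap, against 11.9% of the 51343911 pairs of tested genes above 0 in all 6 libraries. The added pair was Cyp39a1 to Cyp7b1, with Cyp39a1 as the partner that was higher in HSD, which made 5 pairs for Cyp39a1. The pairs share genes and are not independent.

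Between the alternative and the classic pathway, the FPKM ratio of Cyp7b1 to Cyp7a1 was 9.84 in CON14L, 7.24 in CON16L and 2.47 in CON72L, and 22.3 in HS2L, 25.2 in HS4L and 20.2 in HS5L. All HSD ratios lay close together and above all CON ratios, with HS5L beside HS2L and HS4L although its level of Cyp7b1 was that of a CON library. The ratio of Cyp27a1 to Cyp7a1, in contrast, overlapped between the diets. It was 71.4, 16.1 and 13.9 in CON14L, CON16L and CON72L and 29.9, 12.9 and 132.2 in HS2L, HS4L and HS5L. The ratio of Cyp8b1 to Cyp7a1 was 11.7 in CON14L, 7.13 in CON16L and 5.28 in CON72L, and 12.3, 12.9 and 17.4 in HS2L, HS4L and HS5L. These groups did not overlap, but CON14L and HS2L lay next to each other. Between uptake and synthesis, the ratio of Slc10a1 to Cyp8b1 was 0.916 in CON14L, 1.06 in CON16L and 0.892 in CON72L, and 2.07 in HS2L, 1.44 in HS4L and 2.02 in HS5L. The ratio of Slco1b2 to Cyp27a1 was 0.371, 0.563 and 0.493 in CON14L, CON16L and CON72L and 1.17, 2.63 and 0.658 in HS2L, HS4L and HS5L, so it was also higher in every HSD library. Between uptake and secretion, Slco1a4 to Abcb11 was the pair of Abcb11 without overlap, at 0.0229 in CON14L, 0.0504 in CON16L and 0.0356 in CON72L, and 0.185 in HS2L, 0.135 in HS4L and 0.119 in HS5L. Within the Slco1a genes, the ratio of Slco1a4 to Slco1a1 was between 0.101 and 0.132 in CON and between 0.184 and 0.601 in HSD. With 3 libraries a diet an exact permutation test of 1 ratio cannot give a p below 0.1, so none is given.

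**Figure D3:**
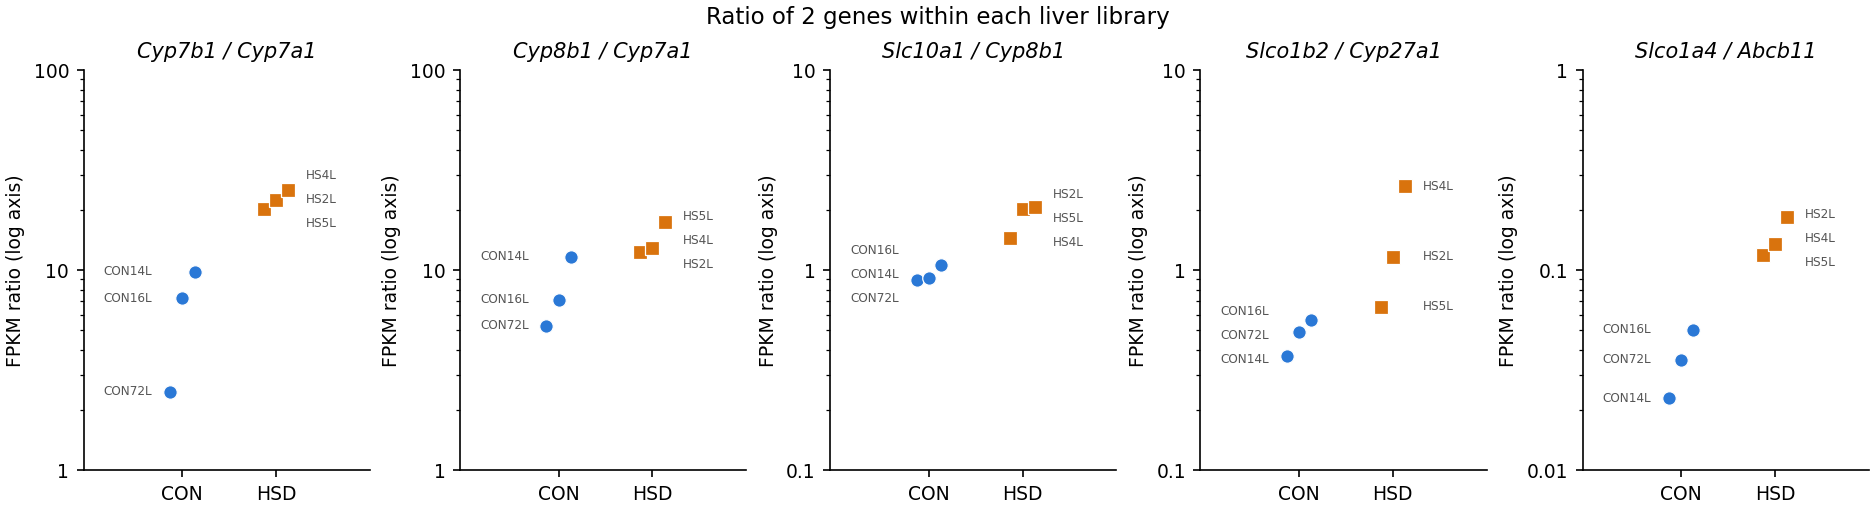
FPKM ratio of 2 genes within each liver library (y axis, log scale) for 5 of the 19 pairs whose ratios did not overlap, with CON as circles and HSD as squares. The squares lie above the circles in each panel, by the smallest gap for Cyp8b1 to Cyp7a1 (12.3 in HS2L, 11.7 in CON14L).

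Of the other genes of bile acid biology in liver, none passed the test in either direction over the 6 libraries. For the counts that follow, 62.7% of all tested genes had a higher mean in HSD, 8.62% had all HSD libraries above CON and 3.47% had all below. Among 14 other enzymes of synthesis and conjugation, 12 were tested, 10 of them had a higher mean in HSD and 4 had all HSD libraries above CON, with a median of 0.54. The range ran from 0.89 for Slc27a5, the bile acid CoA ligase, to −0.32 for Akr1d1, the steroid 5-beta-reductase. Hsd3b7, an enzyme of both pathways, was listed at 0 in all 18 libraries. Among 19 other carriers of bile, 12 were tested and 5 were higher, with a median of −0.05, from 0.68 for Abcc3, a basolateral export pump, to −0.51 for Slc10a2, the sodium-dependent carrier of ileum and bile ducts. Among 17 regulators, 14 were tested, 12 were higher and 6 had all HSD libraries above CON, with a median of 0.49. The highest of them was Nr1i3 (CAR, a xenobiotic receptor) at 1.20 (SE 0.45, unadjusted p = 0.031) and the lowest Mafg, a repressor induced by FXR, at −0.11 (SE 0.38). The FXR gene Nr1h4 stood at 0.14 (SE 0.39) and the gene of SHP, Nr0b2, at 0.66 (SE 0.51), both with overlapping groups, and Fgf15 was below the level tested.

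Of the marker lists set beside these genes in liver, some went mainly 1 way and others were mixed, and their part in the differences was not tested. All 13 mitochondrially encoded genes had a lower mean in HSD, as did all 8 skeletal muscle markers, which were high in CON16L alone. Of 7 endothelial markers, 6 were lower and 1 was higher. The 8 periportal hepatocyte markers all had a higher mean in HSD, with summed FPKM of 1363 to 2587 in CON and 3467 to 4302 in HSD. Of the 8 pericentral markers, 7 were tested and 5 were higher, and the sums overlapped (393.4 to 1582 and 784.9 to 3030 FPKM). Of 7 Kupffer cell and macrophage markers, 6 were tested and all were lower in HSD, with sums of 25.0 to 45.2 FPKM in CON and 10.6 to 18.2 in HSD. Of 16 clock and clock output genes, 14 were tested and 12 were higher, with Cry1 at 1.16 and Per3 at −0.48, and their sums were 92.3 to 107.9 FPKM in CON and 101.1 to 174.2 in HSD. Of 11 male-predominant liver genes, 4 were higher and 7 lower, and Moxd1 (−2.39) and Selenbp2 (−1.95) lay below CON in all HSD libraries. Of 12 female-predominant genes, 11 were below the level tested. No gene of these lists passed the test in limma.

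Across tissues, 8 of the 10 genes were far higher in liver than elsewhere in CON mice. Expressed as a share of the mean FPKM of CON liver, CON eWAT held 0.342% for Abcb11, 0.93% for Slco1a1, 1.13% for Slco1b2, 1.63% for Cyp7a1 and Cyp8b1, 1.71% for Slc10a1, 2.45% for Cyp7b1 and 4.96% for Slco1a4, where Alb was at 0.499%. In CON muscle the same 8 genes were between 0% (Slco1a4) and 0.366% (Slc10a1), with Alb at 0.0486%. In CON eWAT the mean was above the level for testing of 0.5 FPKM for Cyp7b1, Slco1b2, Slc10a1 and Cyp8b1 and below it for the other four, and in CON muscle it was below it for all 8, so only their values are given. Cyp27a1 and Cyp39a1 reached it in all 3 tissues.

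Cyp27a1 was at 47.9 ± 0.505 FPKM in CON eWAT and 47.5 ± 4.03 in CON muscle (SD, n = 3), which was 25.7% and 25.5% of its level in CON liver. Liver was higher than eWAT by 1.93 (SE 0.21, limma adjusted p = 2.21e-05) and than muscle by 1.95 (SE 0.21, limma adjusted p = 3.79e-05). Cyp39a1 showed the opposite order, with 0.628 ± 0.579 FPKM in CON liver, 1.69 ± 0.573 in CON eWAT and 2.58 ± 0.384 in CON muscle (SD, n = 3). Liver was lower than muscle by −1.55 (SE 0.32, limma adjusted p = 0.002) and than eWAT by −1.04 (SE 0.32, limma adjusted p = 0.014), where the median of all genes was −0.52 and −1.36. The difference from eWAT did not pass without CON14L (−0.85), CON72L (−0.84) or CON16W (−0.85), with a pseudocount of 1 (−0.76), with mitochondrially encoded genes left out (−0.44) or with median-ratio scaling (−0.0094, limma adjusted p = 0.983). In these comparisons over CON libraries, 69.4% of the 12637 genes tested were called between liver and eWAT and 50.1% between liver and muscle. Of the 8768 genes called against eWAT 917 were higher in liver, and of the 6329 called against muscle 1893 were. In HSD liver, Cyp39a1 reached 3.16 ± 1.51 FPKM, which is within the range of the other tissues.

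**Figure D4:**
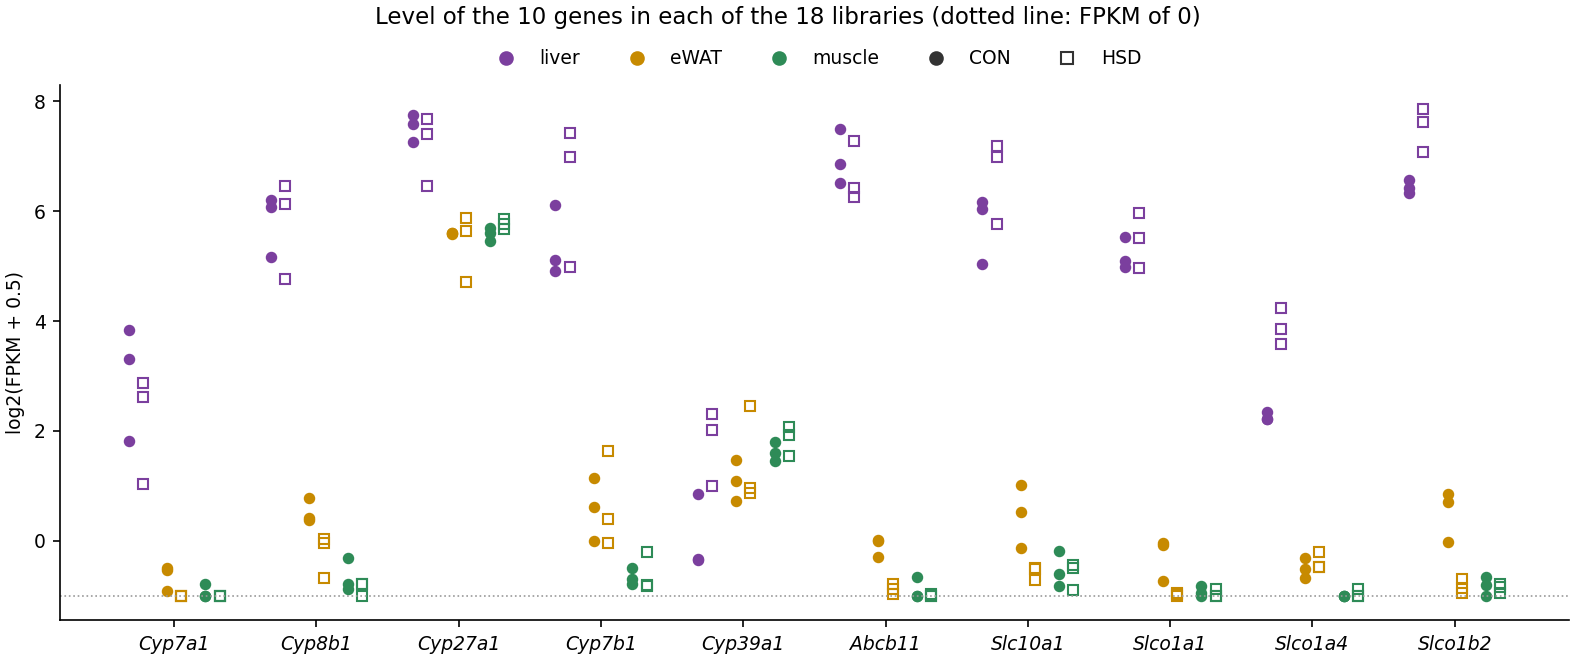
Level of the 10 genes as log2(FPKM + 0.5) in each of the 18 libraries, with colours for tissues, filled circles for CON and open squares for HSD, and the dotted line at an FPKM of 0. Liver lies far above the other tissues for 8 genes, and Cyp27a1 is high in all 3 tissues. Cyp39a1 in CON liver lies below muscle and mostly below eWAT, with CON16L (1.30 FPKM) above CON71W (1.15 FPKM).

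In eWAT, 6 of the 10 genes reached the level for testing, and none of them was called, nor was any of the 13740 genes tested (0%), with 2298 genes at an unadjusted p under 0.05. Slco1b2 was at 1.13, 1.31 and 0.488 FPKM in CON16W, CON71W and CON72W, and at 0.119, 0.0495 and 0.0155 in HS2W, HS3W and HS5W, from 89, 98 and 40 fragments against 8, 3 and 1. Every HSD library was far below every CON library, and the difference was −1.35 (SE 0.36, unadjusted p = 0.00913, limma adjusted p = 0.18). Slc10a1, at 0.936, 1.53 and 0.41 FPKM in CON and 0.2, 0.111 and 0.209 in HSD, and Cyp8b1, at 0.8, 1.22 and 0.832 in CON and 0.526, 0.125 and 0.47 in HSD, were also lower in all HSD libraries (−1.04 and −0.75, limma adjusted p = 0.263 and 0.3). Of the 6 tested genes, 3 had all HSD libraries below CON, as did 12.4% of all genes, but these 3 reached the level for testing mainly through CON, so nothing is read from their number. Of the genes below the level for testing, Abcb11 had 108 fragments over the CON and 9 over the HSD libraries, Slco1a1 85 and 2, and Cyp7a1 28 and 0, while Slco1a4 had 66 and 67.

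These lower counts stood beside lower levels of other liver transcripts in HSD eWAT. Alb was at 107.8, 167.0 and 53.9 FPKM in the CON libraries and 7.85, 3.30 and 5.87 in the HSD libraries. Of the 24 hepatocyte markers, 23 had all HSD libraries below CON, with a median of −2.67, and their summed FPKM was 1356 to 1703 in CON and 371.6 to 1067 in HSD. CON72W, the CON library with the least Alb, also had the least of Slco1b2, Slc10a1, Abcb11, Slco1a1 and Cyp7a1, but not of Cyp8b1 (0.832 FPKM, against 0.8 in CON16W). The part of liver RNA in the values of these genes was not tested. Cyp27a1, at 47.3 to 48.2 FPKM in CON and 25.7 to 57.8 in HSD (−0.19), Cyp7b1 (0.08) and Cyp39a1 (0.33) did not show this pattern. Their extreme HSD value was that of HS3W, the library with epididymal transcripts, at 25.7, 2.59 and 4.98 FPKM, and without it the differences were 0.15, −0.41 and −0.18.

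**Figure D5:**
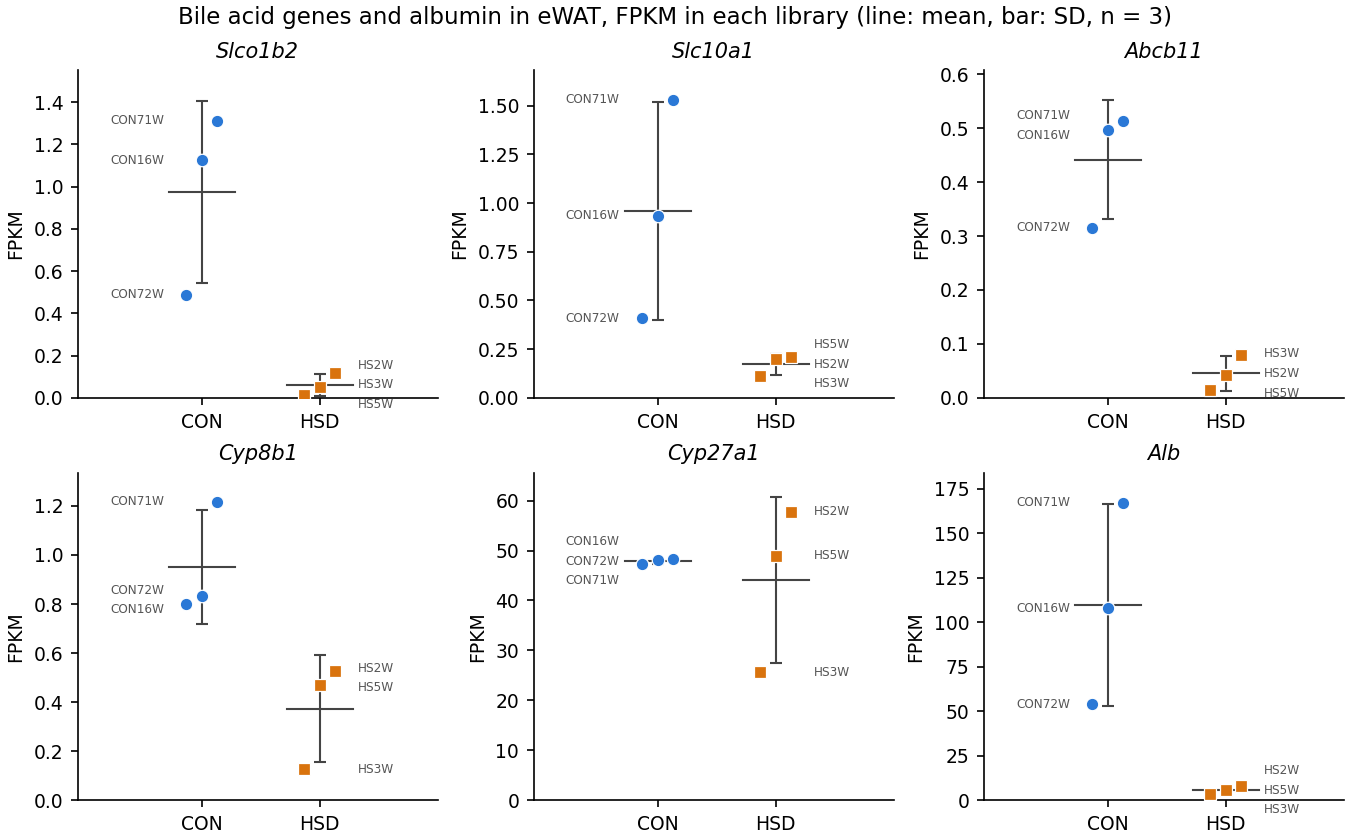
FPKM of 5 of the genes and of Alb in the 6 eWAT libraries, with CON as circles and HSD as squares, each point named by its library, the line at the group mean and the bar as the SD (n = 3). Slco1b2, Slc10a1, Abcb11, Cyp8b1 and Alb are lower in all HSD libraries, and Cyp27a1 is lower in HS3W alone.

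In muscle, Cyp27a1 and Cyp39a1 reached the level for testing. Cyp27a1 was at 48.0, 51.3 and 43.3 FPKM in CON and 50.4, 57.4 and 54.2 in HSD, and Cyp39a1 at 2.22, 2.99 and 2.52 in CON and 3.32, 3.71 and 2.43 in HSD. The groups overlapped for both genes, at 0.18 (SE 0.12, limma adjusted p = 0.469) and 0.24 (SE 0.16, limma adjusted p = 0.499), so neither was called, while 0.323% of the 10834 genes tested were. The other 8 genes had between 0 and 16 fragments in all per diet. CON71M, the muscle library with the most Alb (23.4 FPKM), held all 4 fragments of Cyp7a1 in CON muscle and all 8 of Abcb11.

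The last question is whether the diet difference of a gene was unlike between tissues, tested as an interaction over all 18 libraries. Between liver and eWAT, 2 of the 10 genes were called, Slco1b2 and Slco1a4, where 0.758% of the 13067 genes tested were called. For Slco1b2, the HSD libraries lay above CON in liver and below CON in eWAT, and the diet differences lay apart by 2.43 (SE 0.31, limma adjusted p = 0.00265), with 8, 3 and 1 fragments of the gene in the HSD eWAT libraries. In eWAT the gene reached the level for testing mainly through CON, so its call is not read further. Between liver and muscle, 1 of the 10 genes was called, Slco1a4, where 0.0612% of the genes were called. Slco1a4 was at most 0.369 FPKM in eWAT and 0.0469 in muscle, below the level for testing in both tissues, so its diet difference there was hardly measured and nothing is read from either of its calls. The test takes 1 spread per gene over all tissues, and for Slco1b2 this takes in muscle, where it was at most 0.137 FPKM. Fitted alone, liver and eWAT gave its diet difference SEs of 0.38 and 0.36, so the SE and p of its interaction may be too small. All 24 hepatocyte markers also had a higher diet difference in liver than in eWAT, with a median of 3.47, and 10 of them were called.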

How the data were processed

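Expression was measured by RNA-seq of stranded, rRNA-depleted libraries. Reads had been trimmed (cutadapt) and mapped to mm10 (HISAT2) by the authors. The FPKM per gene, which the paper says came from cuffdiff, were used as deposited, and the tool behind them was not tested. The submitters' processing notes also name HTSeq 0.9.1 and mm9, without a role. The authors' own test was DESeq2, which needs counts and was not run here. Each FPKM was turned into fragments with exon lengths of GENCODE M21, and 97.5% to 98% of values per library came out within 0.02 of a whole number.

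Groups came from the sample labels. Where the FPKM of a gene averaged 0.5 or more in the libraries of a fit, it was tested by limma 3.58.1 (R 4.3.3) on log2(FPKM + 0.5), with a trend of the variance and Benjamini-Hochberg adjustment, each tissue alone. A call needed an adjusted p below 0.05 and a log2 fold change of 1 or more, up or down. All p-values are two-sided. CON tissues and diet by tissue were fitted over 9 and 18 libraries taken as independent. Pair differences, motifs and transcript windows were computed in Python 3.11.15. The limma step was checked on simulated data whose spread between libraries was set beforehand, so the check does not cover the spread of these libraries. The members and lists were chosen with earlier results of these data known. All 10 genes are named, and of the other lists the genes past the threshold or else the highest and the lowest, with a few picked after their values were seen. A regulator of the list is not reported here. The deviations of same-numbered libraries from their group means correlated at −0.47 to 0.40 in liver, −0.20 to 0.41 in eWAT and 0.18 to 0.38 in muscle. All were positive in muscle only, but the labels give no pairing and these values do not establish one.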

Additional observations from a re-analysis of the deposited data

Results flagged for a closer look

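By the interaction in limma over all 18 libraries, the diet difference of Slco1b2 in liver lay above that in eWAT by 2.43 (SE 0.31, adjusted p = 0.00265). That SE takes in muscle, where the gene was at most 0.137 FPKM, and may be too small. Liver and eWAT fitted alone had SEs of 0.38 and 0.36. Slco1b2 was higher in 3 of 3 HSD liver libraries than in any CON liver library and lower in 3 of 3 HSD eWAT libraries than in any CON eWAT library, where Alb was also lower. Within each tissue the difference did not pass (limma adjusted p = 0.764 in liver and 0.18 in eWAT), and the HSD eWAT libraries held 8, 3 and 1 fragments of the gene. In eWAT it reached the level for testing mainly through CON, with a mean of 0.975 FPKM against 0.0613 in HSD, so the interaction is given as values only. With mitochondrially encoded genes left out, the interaction came to 1.97 and did not pass (limma adjusted p = 0.116).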

How the results depend on the processing

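Depth limits the genes with few fragments, Cyp39a1 in CON liver and the liver genes in eWAT, and 3 libraries a group limit all comparisons. Of all genes over 6 liver libraries, 926 were called with array weights (712 higher in HSD) and 41 with all tissues in 1 fit. Of the 10 genes none was called there in the main fit, but 6 were with array weights and 2 with all tissues in 1 fit. Over the study's liver libraries 1 was called, against 3 with a pseudocount of 1, 0 without a filter, 3 with a lowest mean FPKM of 1, 2 with mitochondrially encoded genes left out, 0 without the variance trend, 3 with array weights, 5 with all tissues in 1 fit, 0 with voom on the recovered fragments, 2 with scaling by hepatocyte markers, and 1 to 7 when 1 library was left out (6 without CON14L, 7 without CON72L, where the lone CON library is assumed to vary as the HSD libraries do). The number of all genes called there ran from 0 to 3153 against 35, and 20 of the 35 were higher in HSD, against 28 of 533 with mitochondrially encoded genes left out. In eWAT none was called, against 1 with all tissues in 1 fit, over all or the study's libraries, and 0 to 2 over the study's libraries with 1 left out (2 without HS2W). Of all genes, the fit of all tissues called 161 in eWAT over all libraries and 570 over the study's libraries. For the diet difference in liver against eWAT, 2 of the 10 genes were called, against 1 with a pseudocount of 0.1, 0 with mitochondrially encoded genes left out, 7 over the study's libraries and 2 to 4 with 1 library left out (4 without HS5L). Against muscle 1 was called, against 0 with a pseudocount of 0.1, 0 with mitochondrially encoded genes left out, 5 over the study's libraries, and 0 to 1 with 1 left out (0 without CON14L, CON72L, HS2L or any muscle library). Of all genes, 2455 were called against eWAT and 1286 against muscle over the study's libraries, where all libraries gave 99 and 8. Slco1a4, hardly measured in eWAT and muscle, is counted in both comparisons, and nothing is read from it. The cause of these changes was not tested. Voom, scaling by hepatocyte markers and the pair ratios were added after seeing the data.

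Directions turned for genes that were not called. In liver, Slco1a1 came to −0.27 with mitochondrially encoded genes left out, −0.12 with quantile normalization and −0.53 with hepatocyte scaling, and with 1 library left out Cyp8b1 ran from −0.36 to 0.49 (0.17, 0.11 and 0.49 without CON72L, CON16L or HS5L) and Cyp27a1 from −0.60 to 0.0095 (without HS4L). The median of all genes was −0.37, 0.040 and −0.56 under the 3 scalings. Over the study's liver libraries, with these 3 scalings in the same order, Cyp8b1 came to −0.54, −0.27 and −0.90 and Slco1a1 to −0.45, −0.16 and −0.81, while Slco1b2 came to −0.24 with hepatocyte scaling and Cyp7a1 ran from −1.09 to 0.93 with 1 library left out (0.93 without CON72L, 0.05 without HS2L). There the median of all genes was −0.80, 0.015 and −1.02 under the 3 scalings. In eWAT, Cyp7b1 came to −0.21 with quantile normalization and −0.34 with array weights, Cyp27a1 to 0.16 and Cyp39a1 to −0.059 with array weights. With 1 eWAT library left out, Cyp7b1 ran from −0.41 (without HS3W, −0.22 without CON72W) to 0.42, Cyp27a1 from −0.43 to 0.15 (without HS3W) and Cyp39a1 from −0.18 (without HS3W) to 0.61.

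With the replicate number as a block, 0 of the 10 genes were called in liver over 6 libraries, 0 in eWAT and 0 in muscle, as without it, and the limma adjusted p of Slco1a4 in liver was 0.805. In muscle, where the correlations of same-numbered libraries were all positive but weak, the block moved the calls over all genes from 35 to 54. The study's 4 liver libraries share too few numbers for a block.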
